A study of Mus musculus with 20 samples.

Results

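The extracellular matrix genes described here are those for collagens, laminins, nidogens, basement membrane proteoglycans and their partner proteins, as measured in whole C57BL/6J mouse brain. The rule for members used gene names and no signal values. A probe set counted when its single gene symbol was a collagen chain, a laminin chain, or Nid1, Nid2, Fn1, Sparc, Sparcl1, Hspg2, Agrn, Bgn, Dcn, Lum, Fbn1, Fbln1 or Fbln5, and the probe set with the highest mean signal stood for its gene. The rule found 64 genes among the 18193 that had a probe set with 1 symbol, and Fbn1 was not among them. The study compared 4 groups of 5 brains, 1 array each. Wild-type mice and mice labelled alpha7-/-, which lack the α7 subunit of nicotinic acetylcholine receptors (called α7-deficient below), were taken at 8 weeks (young) and at 2 years (aged), and all groups shared the C57BL/6J strain. Sex is not part of the labels, and the labels do not say how the deficiency was made. Comparisons are between the ages, between the genotypes, and between the age differences of both genotypes.

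Collagens are triple-helical proteins built from 3 chains, and the families differ in the structures they form. Fibrillar collagens assemble into the fibres of connective tissue, which in the brain means the meninges and the walls of larger vessels. Collagen IV and laminins form separate networks in the basement membrane, the sheet that surrounds brain capillaries and underlies the pia, and nidogens and perlecan link both networks. In the brain these proteins come mostly from fibroblasts of the meninges, pericytes, smooth muscle and endothelium, and astrocytes make laminin chains as well. A few collagens, such as those encoded by Col25a1 and Col19a1, are made by neurons. In whole-brain RNA, fewer cells of a type and less RNA per cell cannot be told apart.

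The aged brains had less mRNA of 4 fibrillar collagens, of the basement membrane collagen Col4a1 and of Nid1, and more of Fbln5 and Sparc. Among these, Col3a1, Col1a2, Nid1 and Fbln5 held under every alternative processing that tested them. Col1a1, Col5a2, Col4a1 and Sparc did not. Col4a1 and Sparc lost their call only with the mean of a gene's probe sets. That alternative left the values of Col3a1, Nid1 and Fbln5 as they were, because each had 1 probe set bright enough to be tested. Of the 64 genes, 53 passed a filter on dim probe sets and were tested. A gene was called when its Benjamini-Hochberg adjusted p over all 13389 genes tested was under 0.05 in limma's moderated test. Averaged over genotypes, 9 of the 53 fell at 2 years and 2 rose. Over all genes, 8.42% were called lower and 9.12% higher. The median log2 difference of the 53 genes (2 years minus 8 weeks) was -0.14, and that of all genes was 0.00. At an unadjusted p under 0.05, 20 of the 53 passed (37.7%, against 32.1% of all genes). All 8 collagens that were called fell, of 34 collagens tested, and 29 of these 34 had a difference below 0 (85.3%, against 49.3% of all genes). Without 3 arrays that stood apart, which are described below, 5 of the 34 collagens were called and 23 were below 0 (67.6%, against 49.4% of all genes). Besides these 8, the nidogen gene Nid1 fell. Between the genotypes none of the 53 genes was called.

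The filter kept genes whose mean log2 signal over the 20 arrays was at least 5.45. It kept 10 of 11 fibrillar collagens, 7 of 8 basement membrane collagens, 4 of 5 neuronal and transmembrane collagens, 13 of 18 other collagens and 7 of 10 laminin chains. All 4 nidogen and basement membrane proteoglycan genes passed, as did all 5 genes of fibronectin, fibulins and SPARC proteins and all 3 small leucine-rich proteoglycans. The 11 genes left out were Col4a4, Col6a4, Col6a5, Col9a2, Col10a1, Col17a1, Col24a1, Col26a1, Lama1, Lama4 and Lamb3. They were too dim for a test here, which does not show that they are absent from the brain.

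The calls of Col3a1, Col1a2, Nid1 and Fbln5 held under every alternative processing that tested them, and the 250 bases before their start sites are shown for that reason. The sequences are RefSeq's on GRCm38.p6, read 5′ to 3′ along each gene, and the next base after each is the annotated start site. Capitals mark matches, on either strand, to the GC box GGGCGG, the TATA box TATAAA, the CCAAT box, the AP-1 motif TGANTCA or the SMAD motif CAGACA.
Col3a1, chr1:45311288-45311537, plus strand: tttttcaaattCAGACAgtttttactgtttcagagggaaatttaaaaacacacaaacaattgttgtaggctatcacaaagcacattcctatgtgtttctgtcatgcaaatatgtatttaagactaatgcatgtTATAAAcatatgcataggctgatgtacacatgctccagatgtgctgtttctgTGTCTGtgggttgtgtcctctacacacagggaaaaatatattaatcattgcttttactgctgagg
Col1a2, chr6:4505368-4505617, plus strand: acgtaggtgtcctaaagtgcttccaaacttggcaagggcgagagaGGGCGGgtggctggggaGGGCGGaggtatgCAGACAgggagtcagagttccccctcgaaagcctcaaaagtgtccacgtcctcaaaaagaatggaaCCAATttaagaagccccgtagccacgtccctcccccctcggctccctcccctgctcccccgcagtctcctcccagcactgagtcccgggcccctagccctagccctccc
Nid1, chr13:13437352-13437601, plus strand: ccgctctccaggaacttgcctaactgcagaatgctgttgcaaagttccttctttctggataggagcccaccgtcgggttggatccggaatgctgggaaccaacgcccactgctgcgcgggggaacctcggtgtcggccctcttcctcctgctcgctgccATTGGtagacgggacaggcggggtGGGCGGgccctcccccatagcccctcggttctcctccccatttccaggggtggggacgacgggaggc
Fbln5, chr12:101819120-101819369, minus strand: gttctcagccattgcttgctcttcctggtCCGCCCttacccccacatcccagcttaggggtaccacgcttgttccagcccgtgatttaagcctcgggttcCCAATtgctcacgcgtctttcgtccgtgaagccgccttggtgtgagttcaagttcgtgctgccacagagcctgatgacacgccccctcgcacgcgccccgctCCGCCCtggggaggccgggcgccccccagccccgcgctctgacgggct

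The Col3a1 stretch held TATAAA, which started 117 bases before the start site, and CAGACA on both strands. The Col1a2 stretch held GGGCGG at 205 and 188 bases before its start site, CCAAT at 109 and CAGACA at 175. The Nid1 stretch, which the annotated pseudogene Gm7426 overlaps, held GGGCGG at 67 bases and CCAAT on the opposite strand at 91. The Fbln5 stretch held GGGCGG on the opposite strand at 48 and 221 bases and CCAAT at 150, and a further Fbln5 window that lies inside the gene is not shown. Of the 37 tested genes with such a window in the RefSeq table, GGGCGG was in 25, where 32.7% of all 32851 windows held it. CCAAT was in 14 of the 37 (33.8% of all windows), CAGACA in 11 (17.1%), TATAAA in 3 (12.4%) and TGANTCA in 1 (6.75%). GGGCGG was in 5 of the 7 genes with a window that fell. A gene counted when any of its windows held the motif. The percentages are shares of single windows, so they are not a matched baseline for the counts of genes. Col4a1 and Col4a2 lie head to head on chromosome 8, and their annotated transcripts overlap by 22 bases, so their windows hold transcribed sequence and are not printed. A match of letters is a description and does not show that a factor binds there.

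The genotype labels were checked with the targeted gene. Chrna7, which encodes the alpha7 subunit, had log2 signals of 8.35 to 9.16 in wild-type brains and 5.20 to 6.41 in α7-deficient brains, and its genotype difference was -3.08 (SE 0.127; adjusted p = 2.22e-13). The log2 ratio of 3′ to 5′ signal of the Gapdh control probe sets is a sign of RNA quality. It was 2.11 to 3.42 at 8 weeks and 2.22 to 3.17 at 2 years, so the ages overlapped. Markers of the pituitary were far above the rest on young wild-type array 1 and aged wild-type array 3, whose mean log2 deviations were 3.60 and 3.77.

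A set of 3 arrays stood apart in a way that touches these genes: young wild-type array 5 and aged α7-deficient arrays 1 and 2. Their mice had animal numbers far from the others of their groups. The mean log2 deviation of 14 endothelial markers spanned -0.91 to -0.74 on these 3 arrays, against -0.06 to 0.58 on the remaining 17. The same measure of 10 pericyte and smooth muscle markers spanned -0.67 to -0.48 on the 3, against -0.08 to 0.30 on the 17. They also had the 3 lowest array medians on the linear scale, from 61.3 upward, where the others ran from 67.8 to 78.9. Their log2 Gapdh ratios, 2.83, 2.97 and 3.17, lay above those of 15 of the 17. With the log2 Gapdh ratio as a covariate, all 11 genes called for age averaged over genotypes stayed called. The part of RNA quality in the results was not tested in other ways. Of the endothelial markers 8 of 14, and of the pericyte and smooth muscle markers 5 of 10, were lower on all 3 arrays than on any of the 17, where 3.99% of all genes were. Among the 53 matrix genes Col4a1, Col4a2, Col19a1 and Col9a1 were (7.55%). Because 2 of the 3 arrays are aged and α7-deficient, results that they move are given below with and without them. Without the 3 arrays, 6 of the 53 genes were called lower (8.96% of all genes) and 4 higher (9.84%), and the median difference was -0.06.

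**Figure D1:**
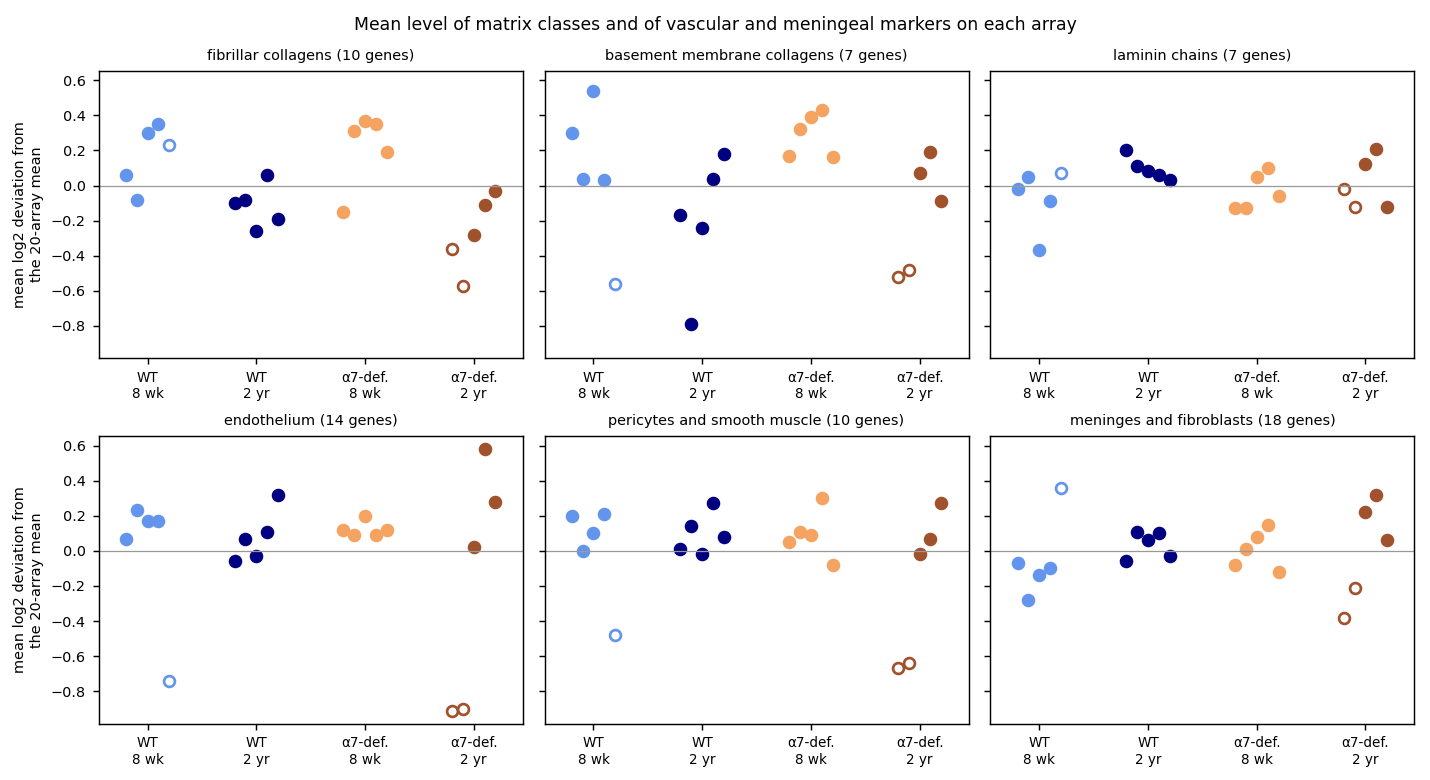
Mean log2 deviation from the 20-array mean (vertical axis) of 3 matrix gene classes and 3 marker lists, 1 point per array in the 4 groups of 5, with open points for the 3 arrays that stood apart. On the open points the endothelial markers lie between -0.91 and -0.74 and the basement membrane collagens between -0.56 and -0.48, while the laminin chains lie between -0.12 and 0.07.

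In the fibrillar collagens all 10 tested genes had a difference below 0, with a median of -0.22, and 4 fell: Col3a1, Col1a1, Col1a2 and Col5a2. The other 6 (Col2a1, Col11a1, Col11a2, Col5a1, Col5a3 and Col27a1) ranged from -0.26 to -0.03 and were not called. When the 3 arrays were left out, 8 of the 10 were below 0, the median was -0.16, and Col3a1 and Col1a2 were called.

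Col3a1 encodes the chain of type III collagen, a fibre of vessel walls and the meninges. Its log2 signals were 7.23, 7.17, 7.80, 8.09 and 8.15 in young wild-type brains and 6.43, 6.60, 6.42, 6.86 and 6.22 in aged ones. In α7-deficient brains they were 7.17, 7.81, 7.42, 8.16 and 7.90 at 8 weeks and 6.16, 5.87, 6.40, 6.38 and 6.04 at 2 years. The lowest young value of either genotype was 7.17 and the highest aged value was 6.86, so the ages did not overlap. It was the 1 matrix gene of the 53 with all 10 aged arrays below all 10 young arrays (0.403% of all genes), and none had all aged arrays above (0.359% of all genes). Averaged over genotypes it fell by 60.8%, a log2 difference of -1.35 (SE 0.148; adjusted p = 4.67e-06), and only 3 of the 13389 genes had a more negative one. Without the 3 arrays the difference was -1.24.

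Col1a1 and Col1a2 encode both chains of type I collagen, the main collagen of fibrous tissue. Col1a1 gave log2 signals of 6.80, 6.97, 7.25, 7.40 and 7.69 in young and 5.89, 6.47, 6.46, 8.57 and 6.33 in aged wild-type brains. In α7-deficient brains they were 6.49, 7.62, 7.33, 7.52 and 7.14 at 8 weeks and 6.00, 5.83, 5.99, 6.33 and 6.37 at 2 years. Aged wild-type array 4, at 8.57, was above every other array of any group, and the remaining 9 aged arrays were below every young one. Col1a2 gave 9.18, 8.53, 8.98, 8.79 and 9.73 in young and 8.25, 8.43, 8.33, 9.55 and 8.80 in aged wild-type brains, with array 4 again the highest aged one. In α7-deficient brains it gave 8.90, 9.15, 8.84, 9.41 and 9.07 at 8 weeks and between 8.31 and 8.44 on all 5 aged arrays, which therefore did not overlap.

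Averaged over genotypes, Col1a1 differed by -0.80 (SE 0.241; adjusted p = 0.026) and Col1a2 by -0.53 (SE 0.147; adjusted p = 0.0163). Leaving out the 3 arrays put Col1a1 at -0.68 with an adjusted p of 0.0929 so that it was no longer called, and Col1a2 at -0.45 (adjusted p = 0.0421). Leaving out aged wild-type array 1 also ended the Col1a1 call, at an adjusted p of 0.0505. A further probe set of Col1a1 gave -1.30 and was called (adjusted p = 0.0175, over all probe sets), and one of Col1a2 gave -0.81 (adjusted p = 0.0562). Col5a2, a chain of the type V collagen that lies within type I fibres, ranged from 6.12 to 6.91 at 8 weeks and from 5.28 to 6.70 at 2 years, and differed by -0.52 (SE 0.168; adjusted p = 0.037). Its call ended without the 3 arrays (-0.38; adjusted p = 0.116) and when any of 10 single arrays was left out. Col27a1, the uncalled fibrillar collagen with the highest mean signal, gave 7.68 to 8.33 in young wild-type, 7.76 to 8.49 in aged wild-type, 7.73 to 8.17 in young α7-deficient and 7.54 to 8.17 in aged α7-deficient brains. These ranges overlapped throughout, and the difference was -0.07 (SE 0.105).

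**Figure D2:**
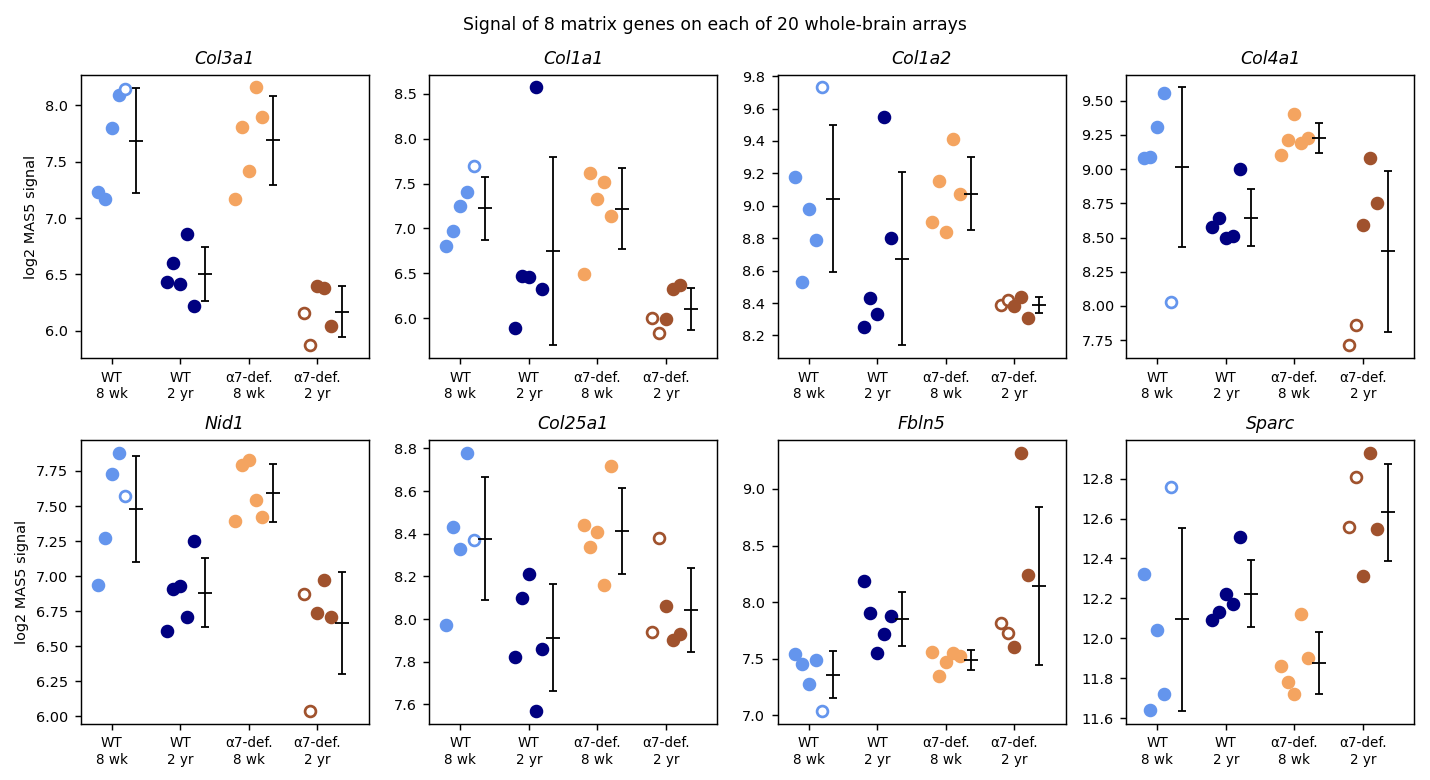
log2 MAS5 signal (vertical axes, 1 scale per gene) of 8 matrix genes on each of the 20 arrays, in 4 groups of 5, with the group mean and SD in black and the 3 arrays that stood apart as open points. Col3a1 shows aged arrays at 5.87 to 6.86 below young arrays at 7.17 to 8.16, and Col4a1 shows all 3 open points at or below 8.03.

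In the basement membrane collagens all 7 tested genes had a difference below 0 (median -0.27), and 1, Col4a1, fell. With the 3 arrays left out, 5 of the 7 were below 0, the median was -0.25, and Col4a1 and Col4a3 were called. Col4a1 and Col4a2 encode the chains of the collagen IV network found in every vessel's basement membrane. Col4a1 gave 9.08, 9.09, 9.31, 9.56 and 8.03 in young and 8.58, 8.64, 8.50, 8.51 and 9.00 in aged wild-type brains. In α7-deficient brains it gave 9.10, 9.21, 9.40, 9.19 and 9.23 at 8 weeks and 7.71, 7.86, 8.59, 9.08 and 8.75 at 2 years. The values 8.03, 7.71 and 7.86 are the 3 arrays with low vascular markers, and on the other 17 the young arrays started at 9.08 and the aged ones ended at 9.08.

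With all arrays Col4a1 differed by -0.60 (SE 0.169; adjusted p = 0.0185). Without the 3 arrays it differed by -0.52, with the smaller SE of 0.0916 and an adjusted p of 0.00101. A further Col4a1 probe set gave -0.34 (adjusted p = 0.233, over all probe sets). On the same arrays 1 of 14 endothelial markers (Itm2a) and 1 of 10 pericyte and smooth muscle markers (Acta2) fell with age, and none rose. In each list 1 fell and 1 rose once the 3 arrays were left out. The summed endothelial signal was 4813 to 8555 in young wild-type, 6790 to 7444 in aged wild-type, 7381 to 8380 in young α7-deficient and 4302 to 9684 in aged α7-deficient brains, and no marker was listed at 0. The part of vascular markers in the Col4a1 difference with all arrays was not tested.

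Col4a2 moved beside Col4a1 with smaller differences. It gave 8.57, 8.37, 8.55, 8.66 and 7.69 in young and 7.99, 8.19, 8.00, 8.01 and 8.45 in aged wild-type brains. In α7-deficient brains it gave 8.43 to 8.60 on the young arrays and 7.60, 7.72, 8.19, 8.81 and 8.31 on the aged ones. Its difference of -0.32 (SE 0.134; adjusted p = 0.104) was not called, and without the 3 arrays it was -0.25 (adjusted p = 0.0627). Col4a3, a chain of the collagen IV of the kidney glomerulus and other special basement membranes, had the widest spread. Its values ran from 3.70 to 7.53 at 8 weeks and from 3.60 to 6.36 at 2 years, so some arrays were near the dim end of the scale. The Col4a3 difference of -1.06 (SE 0.394) was not called with all arrays (adjusted p = 0.0656) and was called without the 3 (-1.36; adjusted p = 0.0127). A further Col4a3 probe set, below the filter with a mean log2 of 3.70, gave -0.08 with all arrays. The X-linked chains Col4a5 and Col4a6 were at -0.06 and -0.22. A further probe set of Col4a5 gave -0.63 (adjusted p = 0.00661, over all probe sets), which the chosen one did not show. Col15a1 and Col18a1, collagens with large sugar chains that sit at the outer face of basement membranes, were at -0.27 (adjusted p = 0.116) and -0.02.

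The neuronal and transmembrane collagens had 1 call among 4 genes, Col25a1. It encodes a transmembrane collagen of neurons whose shed part was found in amyloid plaques. Its log2 signals ran from 7.97 to 8.78 (median 8.39) on the 10 young arrays and from 7.57 to 8.38 (median 7.94) on the 10 aged ones, so the ages overlapped. It differed by -0.42 (SE 0.102; adjusted p = 0.0078), and by -0.46 without the 3 arrays (adjusted p = 0.00845). The call rests on 1 of its probe sets, since the dimmer one gave 0.30 (adjusted p = 0.535, over all probe sets). Taking the mean of both gave -0.06.

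Col19a1, a collagen made by interneurons, was the uncalled gene of this class with the highest mean signal. It gave 7.09 to 7.62 in young and 7.39 to 7.56 in aged wild-type brains, 7.30 to 7.75 in young α7-deficient brains, and 6.81, 7.05, 7.55, 7.57 and 7.55 in aged α7-deficient ones. The 3 lowest of its 20 values (7.09, 6.81 and 7.05) are those of the 3 arrays that stood apart. Its difference was -0.07 (SE 0.107), and 0.02 without them. Col23a1 was at -0.21, and Col13a1, a transmembrane collagen of cell junctions, was at 0.63 (SE 0.238; adjusted p = 0.0692). Set side by side, the median differences were -0.22 for the fibrillar, -0.27 for the basement membrane and -0.14 for the neuronal and transmembrane collagens. The classes were not tested against each other, and without the 3 arrays these medians were -0.16, -0.25 and -0.07.

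**Figure D3:**
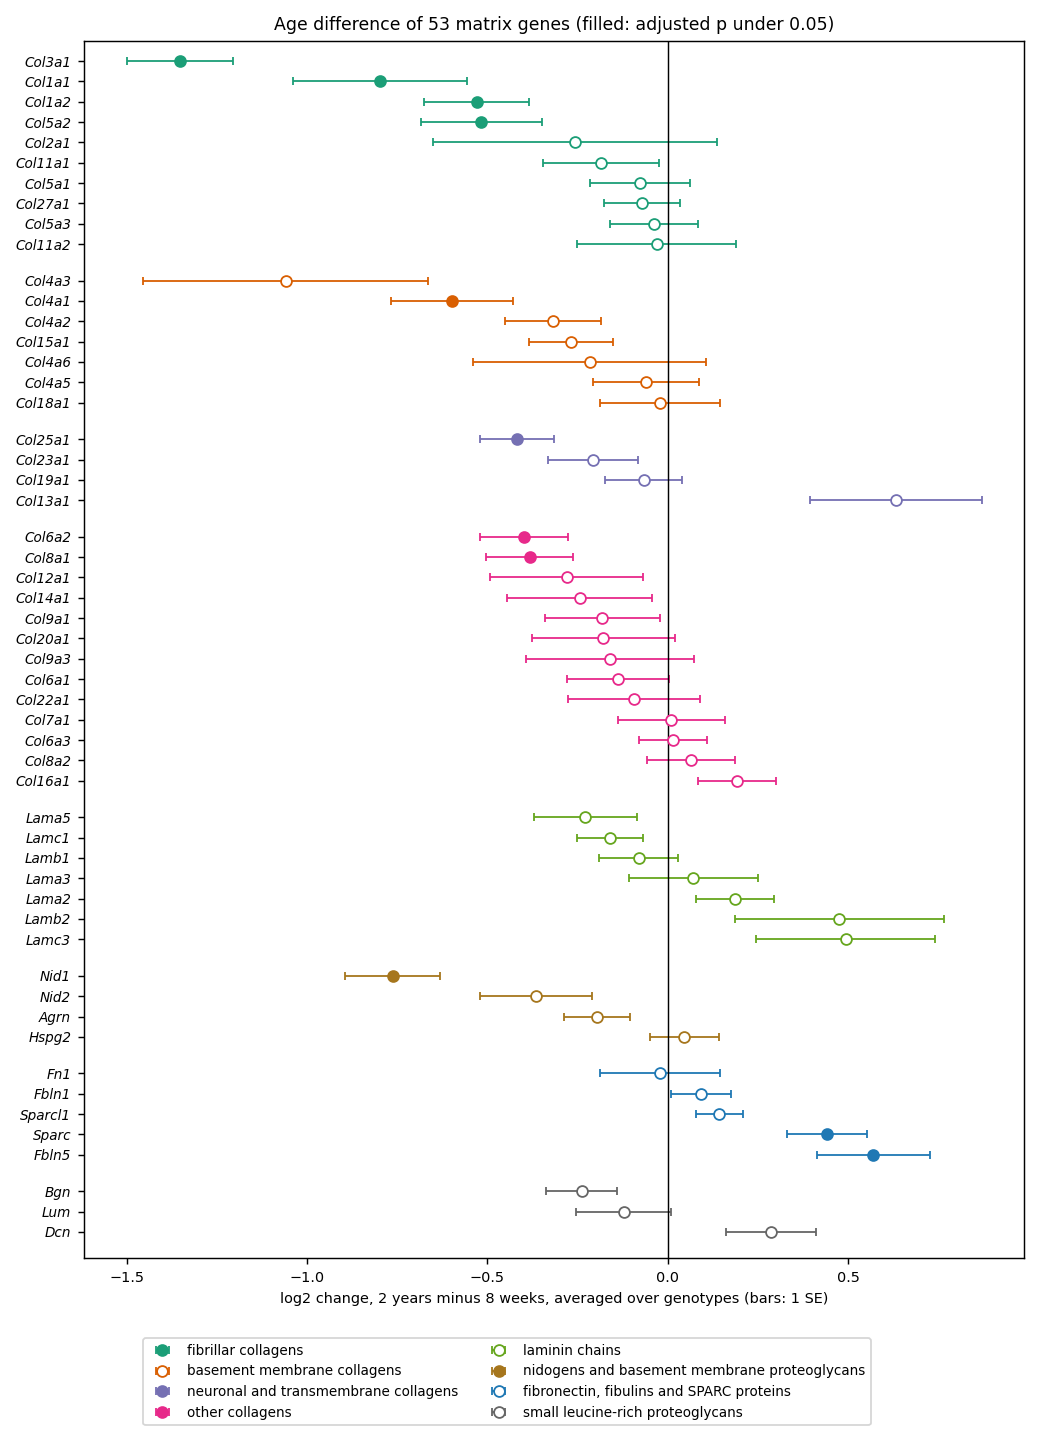
log2 difference between 2 years and 8 weeks, averaged over genotypes (horizontal axis, bars 1 SE), of the 53 tested matrix genes by class, with filled points where the adjusted p was under 0.05. All 10 fibrillar and all 7 basement membrane collagens lie below 0, Col3a1 lies farthest left at -1.35, and none of the 7 laminin chains is filled.

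Among the 13 other collagens, 2 fell and the median was -0.16. Col6a2, a chain of the beaded filaments of collagen VI, ran from 8.30 to 8.82 (median 8.43) at 8 weeks and from 7.39 to 8.57 (median 8.10) at 2 years, a difference of -0.40 (SE 0.123; adjusted p = 0.0289). Its partner Col6a1 was at -0.14 (adjusted p = 0.54). Col8a1, a short-chain collagen of vessel walls, ran from 6.61 to 7.46 and from 6.16 to 6.97, a difference of -0.38 (SE 0.121; adjusted p = 0.0327). Both calls ended without the 3 arrays, at adjusted p = 0.0696 and 0.145, and when any of 5 single arrays (Col6a2) or 8 (Col8a1) was left out. Further probe sets of Col6a2 and Col8a1 gave -0.09 and 0.08. The remaining 11 ranged from -0.28 to 0.19.

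Laminins, the trimers that start basement membrane assembly, showed no called change. None of 7 chains passed, none passed at an unadjusted p under 0.05, and their median was 0.07. Lamc1, the γ chain of most laminins, was at -0.16 (SE 0.0907), with 7.67 to 8.27 at 8 weeks and 7.41 to 8.03 at 2 years. Lamb1, a β chain, was at -0.08 (SE 0.109). Lama2, the chain of astrocyte and muscle basement membranes, was at 0.19 (SE 0.109; adjusted p = 0.247), and 0.27 without the 3 arrays (adjusted p = 0.108). Lamb2 was at 0.48 with an SE of 0.290, and young wild-type array 3 at 3.22 stood far below its other 19 values of 5.45 to 6.67. Lamc3 was at 0.49 (adjusted p = 0.174). The absence of calls does not show equal levels, since the SE of a laminin difference was between 0.0907 and 0.290.

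Of the 4 nidogen and basement membrane proteoglycan genes, Nid1 fell. Nid1 encodes nidogen-1, which binds laminin and collagen IV and joins their networks. It gave 6.94, 7.27, 7.73, 7.88 and 7.57 in young and 6.61, 6.91, 6.93, 6.71 and 7.25 in aged wild-type brains. In α7-deficient brains it gave 7.39, 7.79, 7.83, 7.54 and 7.42 at 8 weeks and 6.87, 6.04, 6.74, 6.97 and 6.71 at 2 years. The α7-deficient ages did not overlap, and in wild type the lowest young array (6.94) lay below the highest aged one (7.25). The difference was -0.76 (SE 0.133; adjusted p = 0.000664), and -0.68 without the 3 arrays (adjusted p = 0.00219). Nid2, the second nidogen, was at -0.37 (adjusted p = 0.106). The heparan sulfate proteoglycan genes Agrn (agrin) and Hspg2 (perlecan) were at -0.20 (adjusted p = 0.139) and 0.05.

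The genes that rose were both in the class of fibronectin, fibulins and SPARC proteins, whose median was 0.14. Fbln5 encodes fibulin-5, which elastic fibres need for their assembly. It gave 7.54, 7.45, 7.28, 7.49 and 7.04 in young and 8.19, 7.90, 7.55, 7.72 and 7.88 in aged wild-type brains. In α7-deficient brains it gave 7.56, 7.35, 7.47, 7.55 and 7.52 at 8 weeks and 7.82, 7.73, 7.60, 9.32 and 8.24 at 2 years. Within each genotype every aged array was above every young one, and aged α7-deficient array 4 at 9.32 was the highest. The gaps were narrow, at 7.54 to 7.55 in wild-type and 7.56 to 7.60 in α7-deficient brains. Over both genotypes the ages overlapped. The share of all genes that separate within 1 genotype, as Col1a2 and Nid1 also did in α7-deficient brains, is not given here. Fbln5 rose by 48.4%, a log2 difference of 0.57 (SE 0.156; adjusted p = 0.0156), and by 0.65 without the 3 arrays.

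Sparc encodes a collagen-binding protein and rose by 0.44 (SE 0.111; adjusted p = 0.00958). It ran from 11.64 to 12.76 (median 11.88) at 8 weeks and from 12.09 to 12.93 (median 12.41) at 2 years. Young wild-type array 5, one of the 3 that stood apart, was the highest young array at 12.76, and without the 3 the rise was 0.51 (adjusted p = 0.00225). The next brightest Sparc probe set, with a mean log2 of 11.50, gave 0.01 (SE 0.0882), so the rise was seen by 1 of 3 probe sets. Sparcl1, its relative in astrocytes, was at 0.14 (SE 0.0656; adjusted p = 0.135). On the same arrays 3 of 12 astrocyte markers (Gfap, Aldoc and S100b) rose with age and none fell, and 4 rose and 1 fell without the 3 arrays. Their summed signal was 34812 to 47334 in young wild-type, 36790 to 41658 in aged wild-type, 34121 to 38801 in young α7-deficient and 39435 to 43657 in aged α7-deficient brains, and the highest sum was on young wild-type array 5. The mean log2 deviation of 9 microglial markers on young wild-type array 5 was 0.31, against -0.51 to -0.29 on the other young arrays. The part of astrocyte and microglial markers in the Sparc and Sparcl1 differences was not tested.

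Fn1, which encodes fibronectin, was at -0.02 (SE 0.167) with all arrays. Aged α7-deficient arrays 1 and 2 both gave 8.79, and the other 18 ranged from 9.55 to 10.50. Without the 3 arrays Fn1 was at 0.27 and was called higher (adjusted p = 0.0441). A further Fn1 probe set, below the filter with a mean log2 of 4.97, gave -0.77 with all arrays. The small leucine-rich proteoglycans, which bind collagen fibres, had no call with all arrays. Bgn (biglycan) was at -0.24 (adjusted p = 0.0975), Lum (lumican) at -0.12 and Dcn (decorin) at 0.29 (adjusted p = 0.119). Young wild-type array 5 gave the highest Dcn value of all, 9.84, and without the 3 arrays Dcn was called higher at 0.39 (adjusted p = 0.00795).

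**Figure D4:**
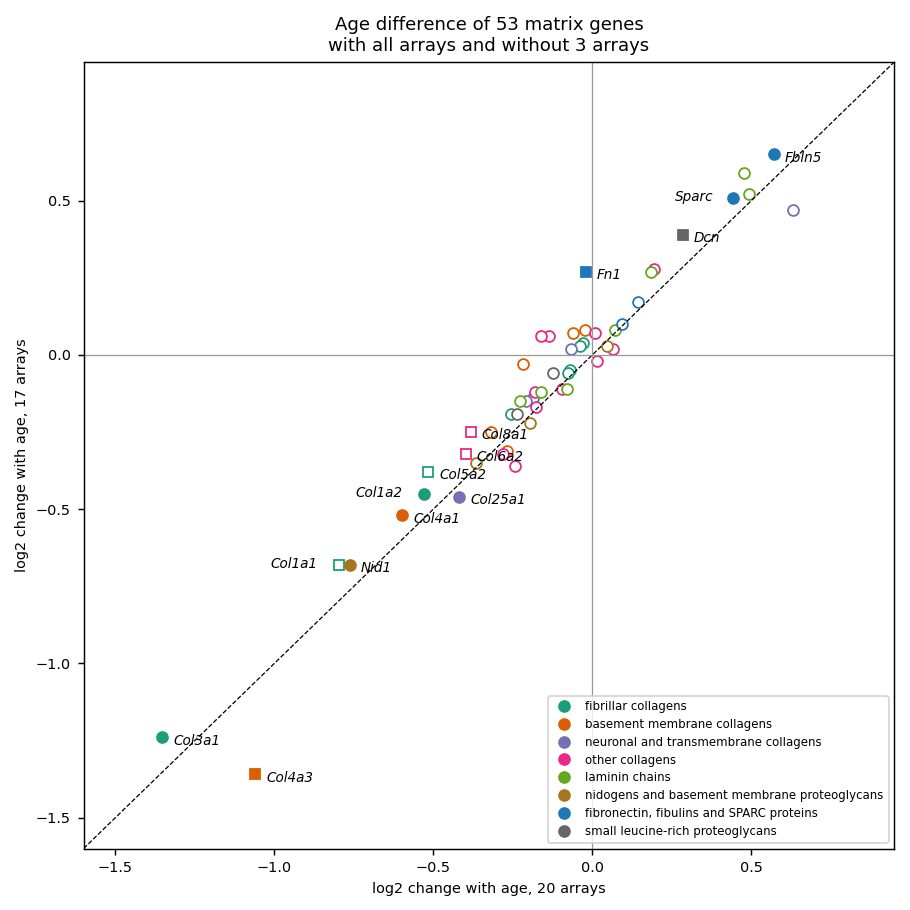
log2 difference between 2 years and 8 weeks with all 20 arrays (horizontal axis) and without the 3 arrays that stood apart (vertical axis, 17 arrays) of the 53 genes, coloured by class. Filled points were called with 17 arrays and squares changed their call, so Col1a1, Col5a2, Col6a2 and Col8a1 are open squares and Col4a3, Fn1 and Dcn are filled ones.

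In wild-type mice alone, Col3a1 was the 1 matrix gene called (1 lower and 0 higher of 53, where 0.284% of all genes were lower and 0.485% higher), at -1.18 (SE 0.209; adjusted p = 0.0058). In α7-deficient mice 5 fell and 2 rose (6.87% and 7.82% of all genes). The 5 were Col3a1 at -1.52, Col1a1 at -1.12, Nid1 at -0.93, Col4a1 at -0.83 and Col1a2 at -0.69, and the risers were Sparc at 0.76 and Fbln5 at 0.65. The same genes in wild type were at -0.48 for Col1a1, -0.60 for Nid1, -0.37 for Col4a1, -0.37 for Col1a2, 0.13 for Sparc and 0.49 for Fbln5. Single arrays moved several of these by over 1.5 times. In wild type Col1a1 was at -0.93 without aged array 4 and at -0.26 without aged array 1. Col1a2 was at -0.59 without aged array 4 and at -0.20 without young array 5, and Col4a1 at -0.61 without young array 5 and at -0.23 without young array 4. Wild-type Sparc was at 0.29 without young array 5, at 0.02 and 0.04 without young arrays 2 and 4, and at 0.06 without aged array 5. In α7-deficient mice Fbln5 was at 0.36 without aged array 4. Of the 53 genes 39 had the same sign in both genotypes (73.6%, against 67.3% of all genes), 28 of them below 0.

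More calls in 1 genotype do not show that age acted differently there. The difference between both age effects was called for none of the 53 genes (0% of all genes), and 3 passed at an unadjusted p under 0.05. These were Sparc, whose rise was larger in α7-deficient mice by 0.63 (SE 0.223), Lum (-0.66) and Col8a2 (0.53), all with an adjusted p of 0.605 in limma. Leaving out the 3 arrays put these differences at 0.42 for Sparc, -0.43 for Lum and 0.37 for Col8a2, and limma again called none of the 53, with 3 at an unadjusted p under 0.05. Without the 3 arrays the calls in wild type were Col3a1 (-1.07) and Col4a1 (-0.61; adjusted p = 0.0174), where 0.762% of all genes were lower and 1.11% higher. In α7-deficient mice they were then Col3a1 (-1.42) and Nid1 (-0.79) as lower and Sparc (0.72), Fbln5 (0.90) and Fn1 (0.47) as higher, where 3.86% and 4.05% of all genes were. Col4a1 in α7-deficient mice was then at -0.42 (adjusted p = 0.0594). The call of Fbln5 in α7-deficient mice (adjusted p = 0.0498) lay just inside the threshold.

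**Figure D5:**
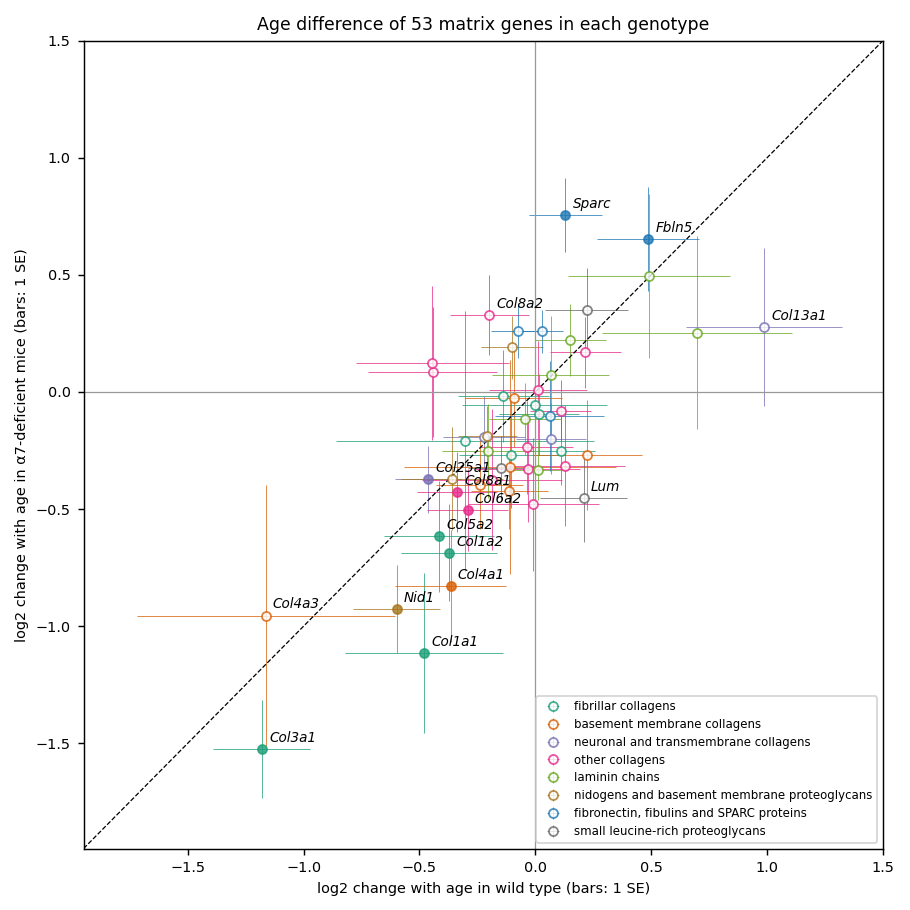
log2 difference between 2 years and 8 weeks in wild type (horizontal axis) and in α7-deficient mice (vertical axis) of the 53 genes, bars 1 SE, coloured by class and filled where called for the average over genotypes, with the dashed line at equal differences. Col3a1 lies at -1.18 and -1.52, and Sparc lies above the line at 0.13 and 0.76.

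Between the genotypes no matrix gene was called. In limma 0 of the 53 were called averaged over ages, in the young mice or in the aged mice, and in each of these comparisons 0.00747% of all genes were called, which is Chrna7 alone. At an unadjusted p under 0.05 there were 3, 3 and 4 of the 53. At 2 years 38 of the 53 were below 0 in α7-deficient mice with all arrays and 22 without the 3 arrays, where the shares of all genes were 50.4% and 49.8%. On the 17 arrays none of the 53 was called by limma in these comparisons, where 0.00747%, 0.00747% and 0.0149% of all genes were, and 4, 2 and 6 passed at an unadjusted p under 0.05. The smallest p belonged to Lum, lumican, whose values at 2 years were 6.54, 6.83, 7.13, 7.03 and 7.04 in wild-type and 6.17, 5.58, 6.36, 6.02 and 6.55 in α7-deficient brains. The lists meet at 6.54 and 6.55, and the difference was -0.78 (SE 0.187; unadjusted p = 0.000417 and adjusted p = 0.818 in limma), and -0.60 without the 3 arrays. At 8 weeks the smallest p was that of Fbln1, fibulin-1, at -0.37 (SE 0.118; unadjusted p = 0.00451 and adjusted p = 0.925 in limma). Over the 53 genes the genotype difference averaged over ages ranged from -0.46 to 0.59.

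Genes that act on the matrix were counted by lists, to be read against the 8.42% of all genes called lower and the 9.12% called higher. Of 24 genes for collagen synthesis and crosslinking 1 rose and 2 fell, with a median of -0.04, and 3 rose and 2 fell without the 3 arrays. Pcolce2, which helps to cut the ends off procollagen, rose by 0.82 (SE 0.115; adjusted p = 9.90e-05) and was called in both genotypes alone, and Adamts3, a procollagen-cutting enzyme, differed by -0.36 (adjusted p = 0.0114). Of 18 matrix proteases and inhibitors 2 rose and 2 fell (3 and 2 without the 3 arrays). The inhibitor Timp3 rose by 0.30 (adjusted p = 0.00408), and Plat, tissue plasminogen activator, was at -0.29 (adjusted p = 0.0115).

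Of 23 matrix receptors 1 rose and 2 fell (0 and 2 without the 3 arrays). Itga5, a chain of the fibronectin receptor, had a log2 difference of -1.36 (SE 0.296; adjusted p = 0.00382), and the syndecan Sdc2 was at -0.27 (adjusted p = 0.0148). In 20 genes of TGF-beta signalling, a pathway that drives collagen genes in fibroblasts, 2 rose and 1 fell (4 and 1 without the 3 arrays). Its inhibitor Smad6 rose by 0.64 (adjusted p = 0.00826), and Skil, another inhibitor, was at -0.34 (adjusted p = 0.000381). In the hyaluronan and lectican matrix between neurons 3 of 14 genes rose and 4 fell, with the same counts without the 3 arrays, among them Hapln2, a link protein of nodes of Ranvier, at 0.90 (adjusted p = 3.21e-06) and Ptprz1, a proteoglycan of glia, at -0.36 (adjusted p = 0.000886).

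Markers of meninges and fibroblasts, the main source of fibrillar collagen, were measured beside them. Some of these markers, Ptgds and Pdgfra among them, are also made by other brain cells. Of 18 markers 1 rose (Ptgds) and 2 fell (Pdgfra and Slc47a1), with a median of -0.03. On the 17 arrays 4 rose and 1 fell, with a median of 0.07. Their summed signal was 14163 to 19247 in young wild-type, 15503 to 18784 in aged wild-type, 13406 to 16293 in young α7-deficient and 15175 to 19591 in aged α7-deficient brains. The part of meninges left on each brain was not tested. In the other marker lists, 5 of 9 microglial markers rose with age and none fell (median 0.74), and 5 of 9 markers of immature neurons and dividing cells fell and none rose (median -0.56). Their part in the differences of the collagens, Sparc and the other matrix genes was not tested.

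Of the 53 genes, 21 had further probe sets that passed the filter, and in 13 of the 21 all probe sets had the same sign. Among the 11 called genes 7 had a further probe set, which was called the same way in 1 (Col1a1) and had the opposite sign in 2 (Col25a1 and Col8a1). Col3a1, Nid1, Fbln5 and Col5a2 had 1 passing probe set each. Their further probe sets, all below the filter, gave -0.84 for Col3a1, -1.22 for Col5a2, and -0.54 and -0.74 for Nid1. The further Fbln5 probe set, with a mean log2 of 4.55, gave 0.02 and so did not show the rise.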

How the data were processed

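The deposited values are linear signal intensities of 45101 probe sets on 20 Affymetrix arrays. Per the submitters' processing notes, the authors computed these intensities with MAS5. No scaling target was stated in the labels used here. The mean of each array after trimming 2% at each end was 250, per the values, so a change shared by all genes would be removed. Groups came from the labelled genotype and age, and the members and gene lists were chosen with earlier results of these data known. Nothing in the labels says how the mice were housed or bred. Differences of housing or breeding therefore cannot be told apart from those of age or genotype. The p-values of limma set each difference against the spread between brains within the groups.

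The log2 of each signal was used with no constant added. Probe sets with 1 symbol and a mean log2 at or above the 40th percentile (5.45, a signal of 43.6) were kept, and the highest mean per gene gave 13389 genes. An Affymetrix suffix of _a, _s or _x marks probe sets that can also bind related transcripts, and those chosen for Col3a1, Col1a2, Col6a2, Col2a1, Lama3 and others are of this kind. In limma 3.58.1 (R 4.3.3), 4 group means were fitted on all arrays with eBayes and an intensity trend, 7 comparisons were drawn, and p-values were adjusted by Benjamini-Hochberg over all genes of a comparison. Precision is limited by the number of arrays, and SEs are those of the moderated fit. The script was tested on simulated data. Named genes were every called member, the 2 brightest members of each class, a hand-written list of 18 with Chrna7, and the 2 pathway genes per list with the smallest p. Alternatives covered normalization, filters, a pseudocount of 16, the variance model, the choice of probe set, covariates and arrays left out. Promoter windows were found in RefSeq for 45 of the 64 genes, and protein features were not analysed here.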

Additional observations from a re-analysis of the deposited data

Results flagged for a closer look

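Of 25 matrix genes checked in 4 groups of 5 arrays each, 100 sets of values in all, 7 had an array whose gap to its nearest neighbour exceeded Dixon's critical value of 0.71 times the group's range. Chance alone gives about 5% of such groups. Of the genes that fell with age, Col1a1 reached 8.57 on aged wild-type array 4, where the other 4 aged wild-type arrays gave 5.89 to 6.47. Col4a1 was high on aged wild-type array 5 at 9.00, against 8.50 to 8.64. Col5a2 was low on aged α7-deficient array 1 at 5.28, against 6.17 to 6.41, and Nid1 was low on aged α7-deficient array 2 at 6.04, against 6.71 to 6.97. These last arrays are among the 3 with low vascular markers.

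The other flags were in uncalled genes. Lamb2 gave 3.22 on young wild-type array 3, against 5.95 to 6.33 on the others of its group. Lamc1 gave 7.57 on aged wild-type array 2, against 7.94 to 8.03, and Col13a1 gave 5.25 on aged wild-type array 4, against 6.12 to 6.37.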

How the results depend on the processing

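Of the 11 genes called for age averaged over genotypes, 4 (Col3a1, Col1a2, Nid1 and Fbln5) stayed called in every alternative that tested them. Col4a1, Col25a1 and Sparc lost their call only with the mean of a gene's probe sets. That alternative left the values of Col3a1, Nid1 and Fbln5 as they were, with 1 passing probe set each. Col3a1 and Col6a2 could not be tested without the probe sets shared between transcripts, because no other probe set of theirs stood in. Of 42 uncalled genes 5 (Bgn, Col13a1, Col4a2, Col4a3 and Dcn) were called in the same direction in at least 1 alternative, and 21 changed sign in at least 1. The 9 falls were 6 to 11 with an array left out. They became 5 and the 2 rises 1 with the mean of a gene's probe sets, and the rises became 4 without the 3 arrays that stood apart. Fn1 turned from -0.02 to 0.27 there and was called. Falls in wild type, 1 in all, were 0 without shared probe sets, 2 without the 3 arrays, 2 without the 2 arrays highest in pituitary markers (chosen after seeing the data), and 1 to 3 with an array left out. Falls in α7-deficient mice, 5 in all, were 2 without the 3 arrays and 2 to 7 with an array left out. The Col1a1 and Col1a2 calls there also ended with Xist as a covariate. That of Col1a1 ended with quantile normalization, and that of Col4a1 with the mean of probe sets. Rises there, 2 in all, were 1 with the 25th percentile filter, with no filter, without the intensity trend, without shared probe sets, with Xist as a covariate and without the 2 pituitary arrays. They were 0 with the mean of probe sets, and 1 to 3 with an array left out. Fbln5 carried most of these changes, with 16 left-out arrays ending its call in α7-deficient mice. The median of the basement membrane collagens in α7-deficient mice, -0.40, was -0.08 without the 3 arrays. No genotype call appeared in any alternative. The causes of these changes were not tested beyond what each alternative leaves out. Dim genes near the filter, such as Col4a3, are the least precise.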
